A study of Homo sapiens with 14 samples.

Results

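Mitochondrial ribosomal protein genes were taken as every protein-coding GENCODE gene on chromosomes 1 to 22 and X whose symbol begins with MRPL or MRPS followed by a number. The rule gave 78 of 19970 coding genes, 49 with an MRPL symbol and 29 with an MRPS symbol, and it used no measured value. For each gene, peak regions within 1 kb of the gene start were collected in 10 deposited peak lists and set beside the same measure at all coding starts.

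The lists came from CUT&RUN, in which an antibody directs a nuclease to chromatin and the released fragments are sequenced. The cells were TC-32, an established Ewing sarcoma line in which EWSR1 is fused to FLI1, labelled wild type and untreated in all 14 libraries, so every group is the same cell line in the same state. Set A held 2 replicates each of FLI1, H3K27ac and IgG, and set B held 2 replicates each of FLI1, H3K9me3, H3K27me3 and IgG. H3K27ac marks active promoters and enhancers, while H3K9me3 and H3K27me3 mark repressed chromatin. The 4 IgG libraries served as controls for peak calling and have no list of their own. TC-32 is a single line, and nothing in the labels says whether replicates came from separate cultures, so the spread between them may be technical. The labels do not say what separates the sets. The antibody is named for FLI1, and fusion and intact FLI1 cannot be told apart in these lists.

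The mitochondrial ribosome translates the few proteins that mitochondrial DNA still encodes, all of them parts of the oxidative phosphorylation machinery. Its proteins are encoded in the nucleus, made in the cytosol and imported, so their supply depends on ordinary nuclear promoters. Many such promoters are known to carry sites for the ETS-family factor GABP (also called NRF2), for NRF1 and for YY1. FLI1 belongs to the same ETS family, whose members share the GGAA core, and the fusion keeps the DNA-binding domain of FLI1.

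Promoter windows of the 6 members with the highest FLI1 rank are shown because they hold some of the letters that the later counts turn on. They were read from RefSeq promoters on GRCh38.p14, 5′ to 3′ on the strand of the gene, and each was placed to hold the most matches with at most 30 bases of untranslated sequence. Capitals mark matches to CCGGAAG or CCGGAAGT (ETS, or their reverse complements CTTCCGG and ACTTCCGG) and to GCGCATGC (the core of the NRF1 motif, GCATGCGC in reverse).

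MRPL27 (chr17:50373155-50373200, minus strand): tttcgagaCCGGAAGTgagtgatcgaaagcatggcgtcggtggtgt
MRPL51 (chr12:6493266-6493385, minus strand): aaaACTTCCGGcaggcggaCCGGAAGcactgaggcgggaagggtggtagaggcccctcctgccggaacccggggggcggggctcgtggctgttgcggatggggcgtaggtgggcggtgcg
MRPS18B (chr6:30617750-30617869, plus strand): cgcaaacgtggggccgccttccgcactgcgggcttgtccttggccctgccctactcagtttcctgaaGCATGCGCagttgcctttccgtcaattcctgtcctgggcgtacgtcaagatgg
MRPS21 (chr1:150293771-150293890, plus strand): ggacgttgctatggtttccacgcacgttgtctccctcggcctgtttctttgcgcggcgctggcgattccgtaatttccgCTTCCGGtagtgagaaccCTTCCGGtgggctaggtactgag
MRPL54 (chr19:3762592-3762711, plus strand): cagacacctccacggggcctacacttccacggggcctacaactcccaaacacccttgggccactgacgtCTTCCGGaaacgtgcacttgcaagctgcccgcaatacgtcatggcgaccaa
MRPL33 (chr2:27771627-27771746, plus strand): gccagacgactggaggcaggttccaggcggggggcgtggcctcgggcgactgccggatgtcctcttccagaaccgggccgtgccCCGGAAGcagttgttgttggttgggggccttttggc

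The ETS heptamer was present in 5 of these 6 windows, which were placed on matches in genes picked for FLI1 rank, so this count is no share. It was in 42.0% of all matched member promoters and 14.3% of coding promoters. MRPL27 held the longer CCGGAAGT form, and MRPL51 held 2 heptamers, 1 of them within the longer form. MRPS21 also held 2. MRPS18B held the NRF1 core and no heptamer in this window. The YY1 motif AAGATGGC, also counted later, lay in no window shown, although the longer promoters of MRPL51 and MRPS18B hold it.

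The FLI1 lists held 29339 to 40590 regions, those of H3K27ac 10219 and 17366, of H3K9me3 36687 and 21770, and of H3K27me3 21461 and 16667. Read totals were not given in the sources used here, so depth is unknown, and a missing region may be a missed one. Of 6 established targets of the fusion (NR0B1, NKX2-2, CCND1, STEAP1, PRKCB and LIPI), 6 had FLI1 regions in all 4 lists over the gene or within 10 kb of it. No share over all coding genes was taken for this wide window, so the count does not identify the line.

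FLI1 regions lay at most mitochondrial ribosomal protein gene starts in every FLI1 list. In set A, 58 of 78 members (74.4%) had a region in replicate 1 and 60 (76.9%) in replicate 2, where 40.7% and 40.4% of all coding starts did. In set B, 66 (84.6%) had a region in replicate 1 and 60 (76.9%) in replicate 2, beside 49.7% and 46.3% of all coding starts. The mean over the 4 lists was 78.2% ± 4.44 for members and 44.3% ± 4.50 for all coding starts (SD, n = 4 lists). The 4 member shares lay above all 4 shares of coding starts. Within the lists the member share was higher by 33.6, 36.6, 35.0 and 30.6 percentage points. Members form a chosen gene list and are not replicates, so no p-value is given for them. Set A against set B, 2 libraries against 2, cannot give an exact permutation p below 0.333 and was not tested either.

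A region in all 4 FLI1 lists was found at 46 members (59.0%), beside 33.8% of all coding starts. No region in any FLI1 list was found at 4 members (5.13%): MRPL37, MRPS22, MRPS25 and MRPS27, beside 45.9% of coding starts. Of MRPL genes, 30 of 49 had FLI1 in all 4 lists, and of MRPS genes 16 of 29. The mean share was 81.1% ± 6.09 for MRPL and 73.3% ± 5.89 for MRPS genes (SD, n = 4 lists).

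The gene start used here is the outermost 5′ end of the GENCODE gene, which for 6 members lies over 1 kb from the start of the canonical transcript. Of the 4 members without FLI1, 3 were among them. Fold is the deposited enrichment of a region over its IgG control. At its canonical start MRPS22 had FLI1 folds of 5.67, 8.55, 12.3 and 13.7 (set A replicates 1 and 2, then set B replicates 1 and 2, the order used throughout). MRPL37 there had 4.82, no region, 5.27 and 6.75, and MRPS27 had 9.10, 6, 4.84 and 12.2. With canonical starts for every gene, 47 members (60.3%) had FLI1 in all 4 lists, beside 35.4% of coding starts. MRPS25 alone had none (1.28%), beside 43.4% of coding starts. Under that choice the order of the symbol groups turned, with 29 of 49 MRPL genes (59.2%) and 18 of 29 MRPS genes (62.1%) in all 4 lists, so no order between them can be read. The symbol groups are also not the subunits, as MRPS18A, MRPS30 and MRPS36 show.

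The other members with distant canonical starts were MRPL11, MRPL34 and MRPL36. MRPL11, a protein of the GTPase-associated centre, had FLI1 folds of 12.3, 6.35, 13.8 and 15.4 at its gene start, beside PELI3. At its canonical start it had 9.03 and 4.86 in set A and no region in set B. MRPL34 had FLI1 in all 4 lists at both starts.

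**Figure D1:**
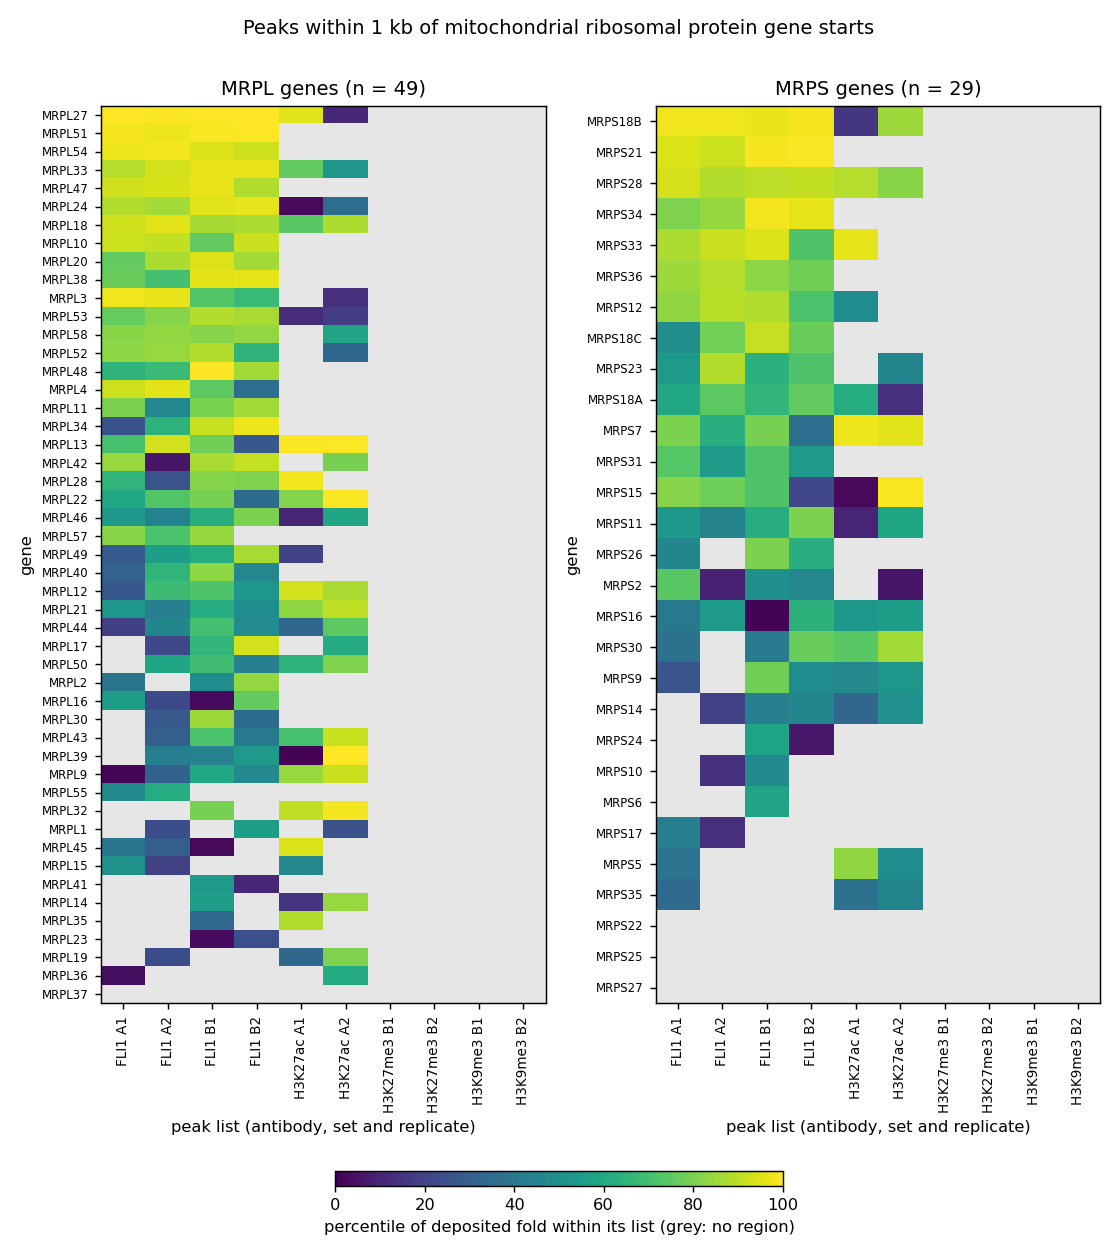
Each row is a gene and each column a peak list. Colour gives the percentile (0 to 100) of the deposited fold among all regions of that list, and grey means no region within 1 kb. FLI1 columns are filled for most members, H3K27ac columns for fewer, and the H3K27me3 and H3K9me3 columns are empty.

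Fold depends on depth, so each region was ranked by fold within its own list. The median member region stood at percentiles 72.3, 68.3, 78.4 and 75.9 in the 4 FLI1 lists, and the median region at a coding start at 72.7, 74.1, 74.6 and 68.7. The means, 73.7 ± 4.41 and 72.5 ± 2.68 (SD, n = 4 lists), differed by less than either spread. Members thus had a region more often than coding starts at large, without a clearly higher rank where one was called.

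MRPL27 (ENSG00000108826, chr17:50367857-50373207, minus strand), a large-subunit protein, had the highest FLI1 folds of the family. Its folds were 137, 91.3, 86.3 and 64.3, with the summit 129 to 170 bp downstream of the start. The family medians were 9.97, 8.53, 13.2 and 11.9. MRPL27 shares its promoter with EME1, a DNA repair gene that starts 13 bp away on the opposite strand.

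MRPL51 followed with folds of 56.0, 43.3, 43.5 and 60.4, and MRPS18B with 48.1, 45.7, 31.5 and 36. Among small-subunit genes MRPS21 came next, at 25.4, 20.7, 40.6 and 46.7. MRPL54 had 42.9, 50.4, 25.7 and 20. The remaining 5 of the 10 highest-ranked members, MRPL33, MRPL47, MRPL24, MRPS28 and MRPL18, ranged from 14.3 to 30.6. H3K27ac was present in both replicates at 6 of the 10, beside 38.5% of all members and 11.3% of coding starts, and in neither at MRPL51, MRPS21, MRPL54 and MRPL47.

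Proteins of the functional centres of the large subunit showed a wide range. MRPL10, which anchors the stalk that recruits translation factors, had FLI1 folds of 21.5, 18.5, 12.5 and 19.3 and no H3K27ac region. MRPL12, which forms the stalk, had 5.36, 8.56, 11.7 and 8.32 with H3K27ac folds of 6.79 and 6.26. The stalk pair thus differed in mark while both carried FLI1 in every list.

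MRPL3, a core protein of the large subunit, had FLI1 folds of 45, 34.6, 11.9 and 10.2. MRPL4, another core protein, had 21.4, 29.5, 12.3 and 6.86. For both genes the set A values lay above the set B values, although folds are not on a common scale between lists. MRPL2, a core protein near the peptidyl transferase centre, had 6.12, no region, 7.96 and 14.3. MRPL58, a peptidyl-tRNA hydrolase built into the large subunit, had 13.1, 13.1, 14.6 and 14.4. MRPL44, which has an RNase III fold, had 4.95, 6.32, 11.1 and 7.89.

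In the small subunit, MRPS12, a protein of the decoding region, had FLI1 folds of 13.6, 16.9, 17.7 and 11. MRPS2 had 10.5, 4.21, 8.26 and 7.72, and MRPS7 had 12.3, 7.81, 13.7 and 7.02. MRPS5 had a FLI1 region in set A replicate 1 only, at 6, with H3K27ac in both replicates at 6.03 and 4.84. Core small-subunit genes therefore ranged from 1 to 4 FLI1 lists. MRPS27, a pentatricopeptide repeat protein, had its nearest FLI1 region 1119 to 1178 bp from the gene start, just outside the window.

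The 3 MRPS18 paralogs, which occupy different places in the ribosome, all had FLI1 in 4 lists. MRPS18A, which sits in the large subunit despite its name, had folds of 7.81, 10.0, 10.2 and 11.9, and MRPS18C had 6.85, 11.1, 20.7 and 12.3, both below the 31.5 to 48.1 of MRPS18B. MRPS30, also a large-subunit protein despite its name, had 5.97, no region, 7.33 and 12.1. MRPS36, since assigned to the 2-oxoglutarate dehydrogenase complex, had 14.7, 16.6, 14.9 and 12.5 and no H3K27ac region.

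Replicates gave the same call, region or none, for 62 of 78 members in set A and 70 of 78 in set B, beside 92.0% and 92.9% of coding starts. Shared absence counts as the same call, and 45.9% of coding starts but 5.13% of members had no FLI1 region in any list. The 2 shares are therefore not a like comparison of reproducibility. MRPL15, MRPL55 and MRPS17 had FLI1 in both replicates of set A and neither of set B (3 members, 3.85%, beside 1.09% of coding starts). MRPL23, MRPL41 and MRPS24 had the reverse pattern (3 members, beside 5.55%). Their folds, 4.22 to 9.11, all lay below the family median of their own list.

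H3K27ac regions lay at 37 members (47.4%) in replicate 1 and 39 (50%) in replicate 2, beside 14.7% and 19.6% of all coding starts. Both replicates held a region at 30 members (38.5%, beside 11.3%), and at least 1 replicate did at 46 (59.0%, beside 23%). The replicates gave the same call at 62 members (79.5%), beside 88.3% of coding starts, where shared absence, which counts as the same call, was more frequent. With only regions of a deposited −log10 q of at least 5, the count in both replicates fell to 7 of 78 members, beside 2.63% of coding starts.

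Among members with H3K27ac in both replicates, the 6 with the highest rank were MRPL13, MRPS7, MRPL32, MRPL22, MRPL12 and MRPL9. MRPL13 had H3K27ac folds of 8.49 and 9.59 and FLI1 folds of 9.68, 21.7, 13.2 and 6.34. MRPL22 had H3K27ac folds of 5.95 and 9.16, and MRPL32 had 6.55 and 7.89. MRPL32, a large-subunit protein matured by a mitochondrial protease, had a FLI1 region in only 1 list, set B replicate 1, at 13.7. The others of these 6, MRPL13, MRPS7, MRPL22, MRPL12 and MRPL9, had FLI1 in all 4 lists, as did 63.3% of all members with H3K27ac in both replicates. Of all members, 59.0% had FLI1 in all 4 lists, and 6 genes are too few to be set apart from these shares. None of these 6 was among the 10 members with the highest FLI1 rank.

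FLI1 in all 4 lists and H3K27ac in both replicates coincided at 19 members (24.4%, beside 8.07% of coding starts). H3K27ac in both replicates was found at 19 of the 46 members with FLI1 in all 4 lists (41.3%) and at 11 of the 32 others (34.4%). Over all coding starts the corresponding shares were 23.9% and 4.87%. The difference between the classes was therefore 6.9 percentage points among members and 19.0 over coding starts. Read from the other side, 63.3% of acetylated members (19 of 30) and 71.5% of acetylated coding starts had FLI1 in all 4 lists.

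The 78 members fell into a few combinations of FLI1 and H3K27ac. Besides the 19 with both in every list (MRPL9, MRPL12, MRPL13, MRPL18, MRPL21, MRPL22, MRPL24, MRPL27, MRPL33, MRPL44, MRPL46, MRPL53, MRPS7, MRPS11, MRPS15, MRPS16, MRPS18A, MRPS18B and MRPS28), 10 had FLI1 in all 4 lists with H3K27ac in 1 replicate. Another 17 had FLI1 in all 4 lists and no H3K27ac region: MRPL4, MRPL10, MRPL11, MRPL16, MRPL20, MRPL34, MRPL38, MRPL40, MRPL47, MRPL48, MRPL51, MRPL54, MRPS18C, MRPS21, MRPS31, MRPS34 and MRPS36. FLI1 lay in 3 lists at 12 members, in 2 at 8 and in 1 at 8. H3K27ac was found in both replicates at 6 of the 12, 0 of the 8 and 5 of the 8, so among members it did not follow the number of FLI1 lists in order. Over all coding starts it did, from 0.981% with no FLI1 list through 9.55%, 12.4% and 18.5% to 23.9% with all 4. The 5 members with FLI1 in 1 list and H3K27ac in both replicates were MRPL14, MRPL19, MRPL32, MRPS5 and MRPS35.

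No member had an H3K27me3 or an H3K9me3 region within 1 kb of its start in any list. A count of 0 of 78 allows a share of up to 3.85%, counting error only. H3K27me3 regions lay at 11.5% and 9.8% of all coding starts in the replicates, and H3K9me3 regions at 2.6% and 1.53%. Both replicates held H3K27me3 at 9.47% of coding starts and H3K9me3 at 1.39%, beside 0 members. The limit is 3 of 78 and treats genes as independent, although members such as MRPL46 and MRPS11 share a promoter, so it is a rough guide. The H3K9me3 background lies under the limit, so a difference from it was not detectable with 78 genes. Both H3K27me3 values lie above the limit, and the difference was not tested.

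Several classes of coding start gave a closer background than all coding starts. Among coding starts with no repressive mark in any list, 38.7% had FLI1 in all 4 lists and 13.1% had H3K27ac in both replicates. Among coding promoters with a CpG ratio (observed over expected) of at least 0.6, the values were 47.7% and 16.2%. The 67 members that met this condition had 58.2% and 40.3%. The member excess in FLI1 was thus 25.2 percentage points against all coding starts and 10.5 against CpG-rich promoters.

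Other nuclear genes of mitochondrial and ribosomal function ranged in mean FLI1 share from 63.9% ± 5.28 (oxidative phosphorylation) and 69.9% ± 1.47 (translation and assembly factors) to 86.8% ± 5.63 (aminoacyl-tRNA synthetases; SD, n = 4 lists), around the 78.2% of members. FLI1 lay in all 4 lists at 13 of 17 mitochondrial aminoacyl-tRNA synthetase genes, which charge tRNAs in the organelle, and at 22 of 34 genes for mitochondrial translation and ribosome assembly factors. It did at 54 of 86 cytosolic ribosomal protein genes (62.8%) and 42 of 88 nuclear subunits of oxidative phosphorylation (47.7%). H3K27ac in both replicates was found at 17 of the 86 cytosolic ribosomal protein genes (19.8%) and 34 of the 88 oxidative phosphorylation genes (38.6%). It was found at 4 of the 17 synthetase genes (23.5%) and 9 of the 34 factor genes (26.5%), while at least 1 replicate held it at 70.6% of each, beside 59.0% of members. The 5 mitochondrial ribosome subunits with other symbols had FLI1 in all 4 lists at 4 and H3K27ac in both replicates at 2. No FLI1 list held a region at 9 factor genes (26.5%) and 19 oxidative phosphorylation genes (21.6%), beside 5.13% of members. The same held at 1 synthetase gene (5.88%), 9 cytosolic ribosomal protein genes (10.5%) and 0 of the 5 other subunits, so a low share was not particular to members. Over all coding starts it was 45.9%. None of these differences was tested.

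**Figure D2:**
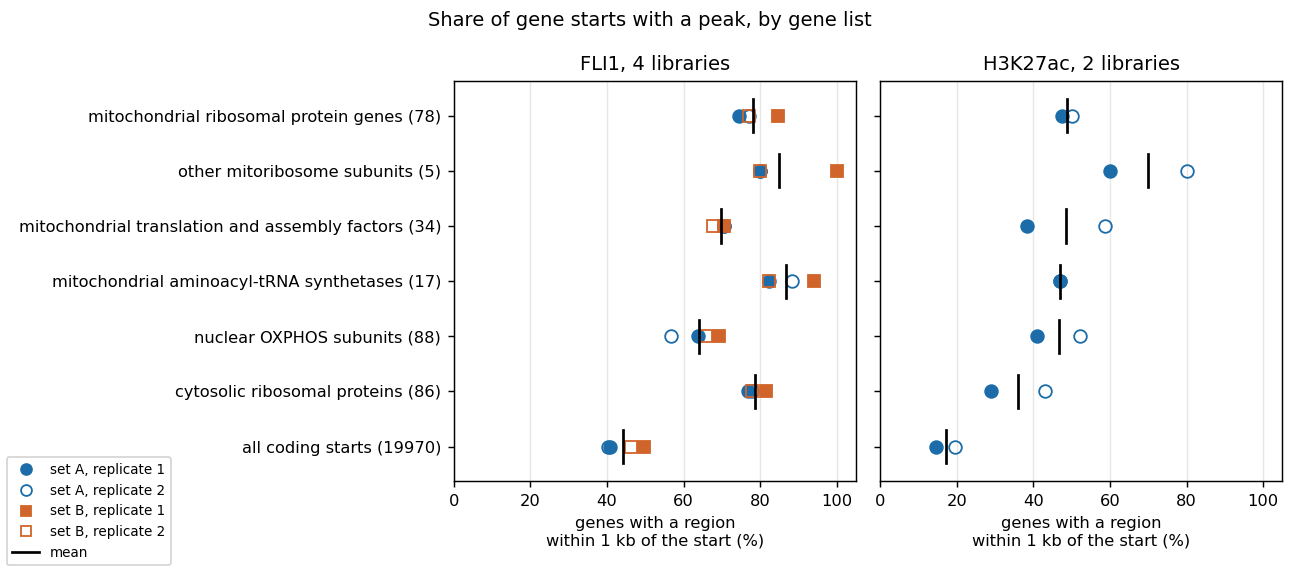
Share of gene starts (percent, from 0) with a FLI1 region (left) or an H3K27ac region (right) within 1 kb, for each gene list with its number of genes. Circles are set A and squares set B, filled for replicate 1 and open for replicate 2, and bars are means. Members lie at 74.4% to 84.6% for FLI1, all above the 40.4% to 49.7% of all coding starts.

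Mitochondrial ribosomal protein genes often start head to head with another gene. An opposite-strand coding start lay within 1 kb at 27 members (34.6%), beside 13.4% of coding starts, at a median distance of 109 bp. Of members with such a partner, 19 of 27 (70.4%) had FLI1 in all 4 lists, beside 67.8% of coding starts with a partner. Of members without, 27 of 51 (52.9%) did, beside 28.5%. The member share thus exceeded its matched background mainly at starts without a partner. H3K27ac in both replicates was found at 13 of 27 members with a partner (48.1%, beside 25.8%) and 17 of 51 without (33.3%, beside 9.06%).

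Several partners are themselves mitochondrial genes. MRPL46 and MRPS11, 1 protein of each subunit, start 63 bp apart and share the same regions, with FLI1 folds of 7.14, 6.22, 9.68 and 13.2 and H3K27ac folds of 4.05 and 5.13, so they are not independent members. MRPL47 starts 41 bp from NDUFB5 and MRPL36 41 bp from NDUFS6, both complex I subunits. MRPS12 starts 181 bp from SARS2, the mitochondrial seryl-tRNA synthetase, and MRPL43 148 bp from TWNK, the mitochondrial DNA helicase. MRPL49 starts 6 bp from FAU, which encodes a cytosolic ribosomal protein.

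FLI1 summits, the point of highest signal in a region, lay close to member starts. The median distance on either side was 181, 171, 153.5 and 151 bp in the 4 lists, beside 219, 213, 170 and 170 bp for coding starts. The means were 164 ± 14.3 and 193 ± 26.7 bp (SD, n = 4 lists), and within the lists members differed by −38, −42, −16.5 and −19 bp. Within 250 bp of the start lay 81.0% ± 5.61 of member summits and 64.3% ± 7.17 of coding summits. The share was 85.2% ± 4.30 for translation and assembly factors, 76.25% ± 9.10 for synthetases and 75.8% ± 5.03 for oxidative phosphorylation genes. It was 73.3% ± 6.83 for cytosolic ribosomal proteins and 33.75% ± 26.9 for the 5 other subunits. A share above that of coding starts was thus not particular to members.

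**Figure D3:**
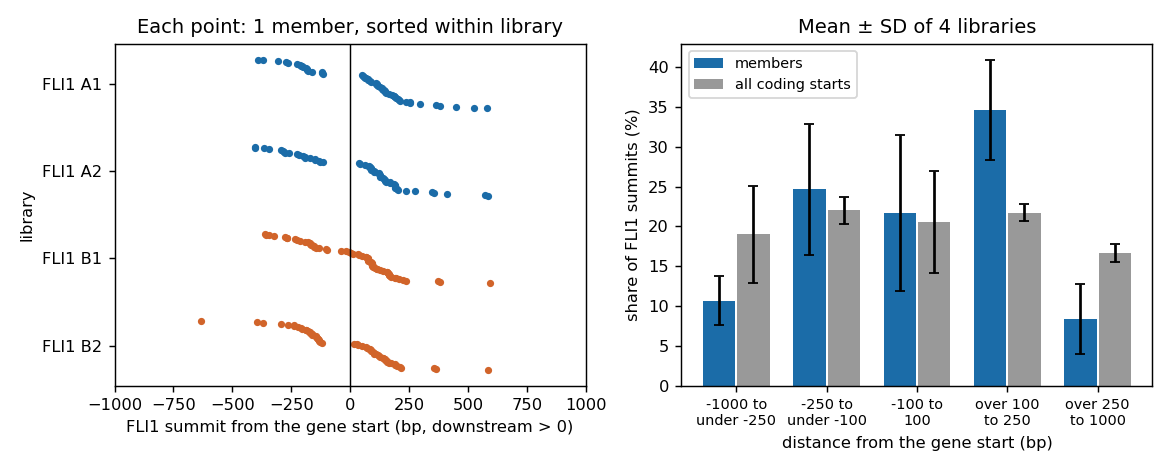
Left, position of the FLI1 summit relative to the gene start (bp, downstream positive), 1 point per mitochondrial ribosomal protein gene and list. Right, share of summits in each distance bin (percent, from 0; mean ± SD of 4 lists) for members and all coding starts. Member summits gather on both sides of the start within 250 bp, and 34.6% lie over 100 and up to 250 bp downstream. Few lie in the 100 bp just upstream of the start (mean 1.52%, beside 5.10% of coding summits).

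Summits were more frequent over 100 and up to 250 bp downstream of member starts, with 34.6% ± 6.24 there beside 21.7% ± 1.02 of coding summits. From 100 to 0 bp upstream, members had no summit in 3 lists and 4 of 66 in set B replicate 1 (6.06%), a mean of 1.52% ± 3.03. Coding starts had 3.02%, 3.91%, 6.72% and 6.75% in the 4 lists, a mean of 5.10% ± 1.93. Few member summits would fall there at those shares, and set B replicate 1 lay near its background. From 100 bp upstream to 100 bp downstream, members had 21.7% ± 9.83 and coding starts 20.6% ± 6.43. These bins were chosen after the positions were seen. From 100 to 0 bp upstream of canonical starts lay 2.73% ± 2.34 of member summits, beside 4.58% ± 2.41, a smaller difference. The side of the start also depended on the annotation. The signed median was 111.5, 101, 74 and 41 bp downstream of the gene start, and −49, 37, −78 and −155 bp from the canonical start. Over coding starts it was 37, 29, 47 and 44 bp, and −171, −168, −83 and −92 bp. The share over 100 and up to 250 bp downstream was taken from the gene start only.

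Promoter sequence was available for 69 of 78 members and 15320 coding genes in the RefSeq promoters, each 300 bases from 250 before to 50 after the RefSeq start. The promoter on the same strand nearest to the gene start was taken, with no limit on the distance between them. FLI1 regions were counted at the gene start, so motif and region can come from different places. For MRPL51 the RefSeq start (6493262) lay 579 bp from the gene start (6493841). MRPL2, MRPL10, MRPL13, MRPL15, MRPL21, MRPL23, MRPL35, MRPS28 and MRPS36 were not matched. Both strands were searched for GGAA, for CCGGAAG and CCGGAAGT, which both contain GGAA and of which the second contains the first, for GCGCATGC (NRF1 core) and for AAGATGGC (YY1).

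The YY1 motif was found in 20 of 69 member promoters (29.0%), beside 4.01% of coding promoters. CCGGAAG was found in 29 (42.0%, beside 14.3%), CCGGAAGT in 11 (15.9%, beside 6.30%) and the NRF1 core in 6 (8.70%, beside 4.30%). GGAA alone was found in 68 of 69, beside 95.2%. Among coding promoters with a CpG ratio of at least 0.6, CCGGAAG was found in 19.7% and AAGATGGC in 5.39%. A match describes letters and is not a measured binding site.

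The heptamer was singled out after 5 ETS forms had been counted. Besides the forms above, GGAAGT was found in 20 of 69 members (29.0%, beside 25% of coding promoters). CGGAAGTG was found in 7 of 69 (10.1%, beside 6.04%). FLI1 lay in all 4 lists at 24 of 29 members with CCGGAAG (82.8%) and 17 of 40 without (42.5%), beside 69.4% and 29.9% of coding starts. The 1 heptamer member with no FLI1 region was MRPS22. Its canonical start lies 338 kb from the gene start and had FLI1 in all 4 lists. For GGAAGT the counts were 17 of 20 with (85%) and 24 of 49 without (49.0%), beside 48.9% and 31.1% of coding starts. For CCGGAAGT they were 10 of 11 (90.9%) and 31 of 58 (53.4%), beside 81.7% and 32.5%. For CGGAAGTG they were 6 of 7 (85.7%) and 35 of 62 (56.5%), beside 78.0% and 32.8%. The direction was thus the same in members and over coding starts for each of these forms. For the YY1 motif the member shares were alike, 12 of 20 with (60.0%) and 29 of 49 without (59.2%). Over coding starts they were not, at 55.2% with and 34.7% without. For the NRF1 core they were 4 of 6 members with and 37 of 63 without, beside 54.3% and 34.7% of coding starts. A higher FLI1 share with a match was thus not limited to ETS forms over coding starts.

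**Figure D4:**
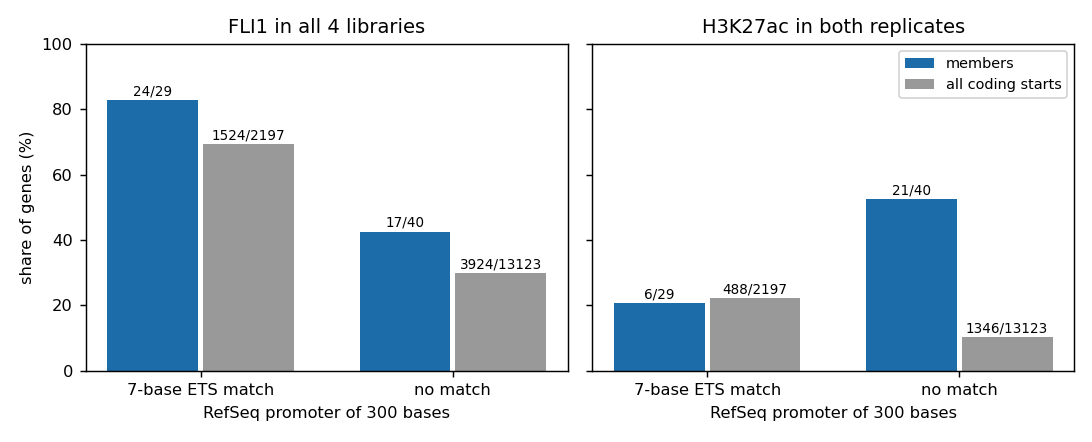
Share of starts (percent) with FLI1 in all 4 lists and with H3K27ac in both replicates, at promoters with and without the ETS heptamer, for mitochondrial ribosomal protein genes and all coding starts. Numbers over the bars give genes counted over genes in the class. FLI1 is more frequent with a match in both lists of genes, and H3K27ac is less frequent with a match among members (20.7% against 52.5%) and more frequent among coding starts.

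H3K27ac ran the other way among members. It was present in both replicates at 6 of 29 members with the heptamer (20.7%) and 21 of 40 without (52.5%), while over coding starts the shares were 22.2% with and 10.3% without. Among genes with FLI1 in all 4 lists, the median FLI1 percentile, averaged over lists for each gene, was 83.2 for the 24 members with the heptamer and 63.4 for the 17 without, beside 83.8 and 71.7 for coding starts. No test was made of these differences.

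The heptamer seldom lay at the FLI1 summit itself. It was found within 50 bp of the summit at 2, 1, 2 and 1 members in the 4 lists (2.45% ± 0.924, beside 3.43% ± 0.973 of coding summits). Where the promoter held a match, the nearest one lay within 50 bp of the summit for 0.893% ± 1.79 of members and 8.44% ± 3.63 of coding starts. The median distance from summit to that match was 165, 152, 152 and 144 bp in members, and 164.5, 155.5, 129 and 129 bp over coding starts. A distance of 100 to 250 bp was found for 66.5% ± 3.99 of such members and 54.1% ± 3.20 of such coding starts (SD, n = 4 lists).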

How the data were processed

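Peaks were measured by CUT&RUN in 14 libraries of TC-32 cells, and 10 peak lists were used. The submitters' processing notes name cutadapt 4.4, Bowtie2, Picard 2.17.11, MACS2 2.1.1 and GRCh38 (hg38), without roles or order. Per the names in the files, duplicates were removed and each library was called separately against the IgG library of its set and replicate number, with narrow regions for FLI1 and H3K27ac and broad regions for H3K9me3 and H3K27me3. The authors deposited for each region a fold over control (ratio), −log10 p and q values, a score and, in narrow lists, a summit position. The lowest deposited −log10 q was 2.00. Depth per sample is unknown, and fold and the number of regions depend on it, so folds were ranked only within a list.

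Overlapping entries of a list were merged, and a region counted when it overlapped 1 kb either side of the 5′ end of the gene in GENCODE release 44. Scripts used Python 3.11.15, pandas 2.3.3, numpy 2.4.6 and pysam 0.24.0, and were tested on simulated peaks. No test was run, and shares are given per list with mean ± SD.

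Named members were the 10 with the highest mean FLI1 fold percentile among those with FLI1 in all 4 lists, those with FLI1 in none, those with a repressive mark, those in both libraries of only 1 set, the 6 highest in H3K27ac, and members listed for their role. Members and lists were chosen with earlier results of these data known. Chosen after values were seen were the CCGGAAG form, the offset bins, the distance from summit to motif, the CpG and no-repressive-mark backgrounds, and the placing of the printed windows. Alternatives were other windows, starts, thresholds, region numbers, starts without a partner, and leaving out each library.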

Additional observations from a re-analysis of the deposited data

Results flagged for a closer look

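At 4 of the 46 members with a summit in all 4 lists (8.70%), the FLI1 summits of both set A replicates lay on the opposite side of the gene start from those of both set B replicates. The same was seen at 654 of 6273 coding starts with a summit in all 4 lists (10.4%), so the member share lay near the background. The summits of MRPL44 lay at −391 and −405 bp in set A and at 13 and 33 bp in set B, a gap between set means of −421 bp. For MRPL12 they lay at −210 and −259 bp in set A and 91 and 97 bp in set B, a gap of −328.5 bp. The opposite order was seen at MRPL47, with 208 and 191 bp in set A and −190 and −187 bp in set B (a gap of 388 bp), and at MRPS7, with 110 and 85 bp against −278 and −172 bp (322.5 bp). These differences between the sets were not tested. Of 19 sets of 4 values checked for a library far from the other 3, 0 held one.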

How the results depend on the processing

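Of 92 alternative values for the 8 measures described, 81 stayed within a factor of 1.5 (counts) or 1 SD between lists (shares, distances, percentiles), 11 moved further and 0 reversed, and H3K27me3 and H3K9me3 stayed at 0 members in every setting. Using the same number of strongest regions from each list gave a mean FLI1 share of 73.1%, beside 41.8% of coding starts. It gave 12 members with FLI1 in all lists and H3K27ac in both replicates, beside 1193 of 19970 coding starts. Among the 51 members without an opposite-strand start, 27 had FLI1 in all lists, 17 had H3K27ac in both replicates, 10 had both, and the median fold percentile was 67.4. A −log10 q of at least 5 left 7 members with H3K27ac in both replicates (8.97%) and 5 with FLI1 as well (6.41%). The shares of coding starts were 2.63% and 1.76%. Counting H3K27ac in either replicate gave 46 and 29. Measuring from any coding transcript start gave a median summit distance of 127 bp. Within the factor of 1.5, FLI1 in at least 2 of 4 lists gave 66 members (84.6%) in place of 46. The share of coding starts rose with it, to 48.7% in place of 33.8%. Leaving out each library in turn gave FLI1 shares of 76.1% to 79.5%, 46 to 52 members with FLI1 in all remaining lists, 37 to 39 with H3K27ac, and 19 to 25 with both. Over the 19970 coding starts these ranges were 42.5% to 45.6%, 6833 to 7261, 2926 to 3924 and 1637 to 2752. The fewer starts or regions in an alternative lower its counts by construction, and other causes were not tested. No paired analysis was possible because no test between groups of samples was run. Each list does give members and coding starts side by side, and in all 4 FLI1 lists the member share was higher and the summit distance shorter. Unknown depth limits what an absent region shows.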

Other observations

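The motif counts differed between groups of nuclear genes for mitochondrial and cytosolic translation. CCGGAAG was found in 18 of 32 promoters of mitochondrial translation and assembly factors, 6 of 14 of mitochondrial aminoacyl-tRNA synthetases, 23 of 68 of cytosolic ribosomal proteins and 20 of 69 of oxidative phosphorylation subunits, beside 29 of 69 in mitochondrial ribosomal protein genes. AAGATGGC was found in 1 of 32, 3 of 14, 8 of 68 and 11 of 69 in the same order, beside 20 of 69. No difference between these groups was tested.

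Among the 46 members with FLI1 in all 4 lists, H3K27ac in both replicates showed no steady order along FLI1 rank. It was found at 6 of the 10 highest-ranked, 1 of the next 13 and 12 of the last 23, limits that were set after the values were seen. Split at the median rank, it was found at 7 of the upper 23 and 12 of the lower 23. The same split over coding starts with FLI1 in all 4 lists gave 24.6% and 23.3%. No difference was tested.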
